A study of Mus musculus with 8 samples.

Results

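The heights of open chromatin peaks were compared between wild-type (WT) and homozygous Chd7 mutant granule neuron progenitors (GNPs), over the autosomal peaks that the WT and the mutant list have in common. A pair was a WT peak and a mutant peak that overlapped each other by at least 1 bp and overlapped no other peak of either list. There were 107096 such pairs, which held 71.6% of the 149637 autosomal WT peaks and 62.9% of the 170362 autosomal mutant peaks, out of 434365 peaks in all lists of the series. Peaks without a partner (34375 WT, 52399 mutant) and peaks that overlapped more than 1 peak (8166 WT, 10867 mutant) were left out. The height of a peak was its pileup, the number of extended tags stacked at the summit, divided by the tags left after filtering (50394313 for WT, 51030229 for mutant). Heights are reported as the log2 ratio of mutant to WT, so that negative values mean a lower peak in the mutant. Because of the difference in tags, equal pileups give a ratio of -0.018.

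The assay was ATAC-seq, which uses Tn5 transposase to cut and tag accessible DNA, on GNPs of mouse cerebella at postnatal day 7. Per the study, WT mice carried floxed Chd7 alleles without Cre (Chd7 f/f), mutant mice carried the same alleles with Atoh1-Cre (Atoh1-Cre::Chd7 f/f), and heterozygous (het) mice carried Atoh1-Cre with 1 floxed allele (Atoh1-Cre::Chd7 f/+). The labels give the strain as C56Bl6/J, whereas the study's methods name C57BL/6N. Each list was called on the pooled libraries of a genotype (3 WT, 3 mutant, 2 het), and the study describes the replicates as technical, so no value has a replicate error and no difference was tested against the spread between libraries or mice. Intervals given for a pair are exact binomial 95% intervals, and these cover counting error only.

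Chd7 is an ATP-dependent chromatin remodelling enzyme that binds promoters and enhancers and slides nucleosomes. GNPs divide in the external granule layer under Sonic hedgehog, express the basic helix-loop-helix (bHLH) factor Atoh1, and leave the cycle to become granule neurons under related bHLH factors such as Neurod1. Factors of this family bind E-boxes, short sites of the form CANNTG. The Atoh1-Cre transgene is active in this lineage and is itself driven by an enhancer from downstream of Atoh1.

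The sequences around a few of the pairs described below are shown because the E-boxes marked in them were more frequent in lower than in higher pairs. Each run is 200 bases of the plus strand of GRCm38 (mm10) around the midpoint of the WT and mutant summits. Capitals mark the E-box CAGATG, which reads CATCTG from the other strand, and the palindromic E-box CATATG.
Fstl5, lower in the mutant, chr3:77800879-77801078: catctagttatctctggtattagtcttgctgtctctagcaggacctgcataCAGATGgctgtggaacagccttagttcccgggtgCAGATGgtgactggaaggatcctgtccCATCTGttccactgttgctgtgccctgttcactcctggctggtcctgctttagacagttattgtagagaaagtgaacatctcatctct
1700030L20Rik, lower, chr3:136449496-136449695: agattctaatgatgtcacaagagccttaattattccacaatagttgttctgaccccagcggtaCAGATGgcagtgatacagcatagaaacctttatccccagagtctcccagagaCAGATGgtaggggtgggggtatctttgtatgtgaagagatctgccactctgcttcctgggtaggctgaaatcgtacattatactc
A330069K06Rik, lower, chr3:80211835-80212034: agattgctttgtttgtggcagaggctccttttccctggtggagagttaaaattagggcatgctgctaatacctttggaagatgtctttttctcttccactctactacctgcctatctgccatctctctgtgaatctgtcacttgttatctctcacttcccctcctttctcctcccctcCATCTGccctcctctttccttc
Csmd3, lower, chr15:48618707-48618906: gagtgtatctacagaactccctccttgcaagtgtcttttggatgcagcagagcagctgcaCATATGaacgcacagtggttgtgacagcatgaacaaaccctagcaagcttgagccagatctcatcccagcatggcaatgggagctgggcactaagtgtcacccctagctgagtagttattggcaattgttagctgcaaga
Atoh1, higher, chr6:64734412-64734611: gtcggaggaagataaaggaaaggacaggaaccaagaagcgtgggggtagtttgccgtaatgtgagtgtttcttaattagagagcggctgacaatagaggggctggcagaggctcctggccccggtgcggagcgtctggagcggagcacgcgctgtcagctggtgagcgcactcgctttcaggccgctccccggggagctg
Pde4b, higher, chr4:102568696-102568895: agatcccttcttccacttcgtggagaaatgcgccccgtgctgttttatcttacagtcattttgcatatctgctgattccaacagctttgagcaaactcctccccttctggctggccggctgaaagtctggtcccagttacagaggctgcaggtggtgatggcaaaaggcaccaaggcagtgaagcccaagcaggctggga
Of the 8 lowest pairs with a summed pileup (WT plus mutant) of at least 100, 6 held at least 1 of these hexamers in the 200 bases. Of the 8 highest pairs 0 did. The lower windows shown all hold a site, but the lowest pair, nearest to Gm35430, and the lower Pde4b pair held 0. The Kcnd2 pair with a ratio of -1.07 also held 0. In a wider window of 300 bases, either hexamer was in 50.04% of all pairs away from TSS with a summed pileup of at least 60. The share over all pairs was not counted in 200 bases, so 6 of 8 has no matched baseline. The 8 lowest and 8 highest pairs were chosen for their ratios, so the counts are a description.

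Over all pairs the heights of the lists followed each other closely. The Pearson correlation of log2 height was 0.91 (Spearman 0.886) over 107096 pairs, which share libraries and depth. The median log2 ratio was 0.071 (order-statistic 95% interval 0.069 to 0.075), the quartiles were -0.14 and 0.29, and the SD over pairs was 0.36. The mutant peak was at least 1.5-fold lower in 4007 pairs (3.74%) and at least 1.5-fold higher in 8060 pairs (7.53%). With the authors' fold enrichment in place of pileup, 2164 pairs were lower and 6133 higher. When ratios were centred on their median the counts became 5600 and 5903, which are close to each other. The lower pairs had median pileups of 21 in WT and 12 in mutant, and the higher pairs had 13 and 22.

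**Figure D1:**
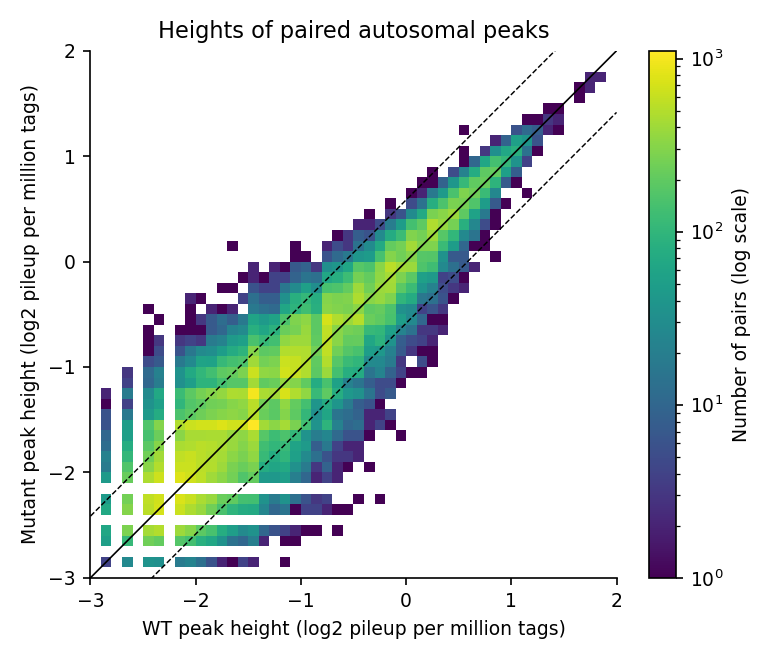
Height of each paired autosomal peak in WT (horizontal axis) and mutant (vertical axis), both as log2 of pileup scaled to tags; colour gives the number of pairs in a cell on a log scale. The solid line marks equal height and the dashed lines 1.5-fold, beyond which 3.74% of pairs lay lower and 7.53% higher, mostly among low peaks.

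Pairs past 1.5-fold were nearly all low. Among pairs with a summed pileup from 30 to under 60, 4.77% were lower and 10.7% higher, whereas among the 8908 pairs from 100 to under 150 these shares were 0.348% and 0.135%. Of the 3045 pairs of 150 or more, 0 were lower and 1, next to Atoh1, was higher. The SD over pairs went from 0.40 at 30 to under 60 to 0.11 at 150 or more, and in each height class it was below the SD that counting error alone would give for independent tags (0.46 and 0.22 in those classes). The exact interval of the ratio lay wholly below 1 in 559 pairs (0.522%) and wholly above 1 in 863 pairs (0.806%), both under the 2.5% on each side that such intervals nominally give at equal height. Single pairs are therefore given below as values with wide intervals, and groups of pairs by their medians and shares. Pileup also had a ceiling, since 1 tag per position and strand was kept: the tallest pair, at Gm10800 on chromosome 2, reached it in both lists (180 in WT, 176 in mutant). The other 4 of the 5 tallest pairs, nearest to Gm10801, Col19a1, Gm33838 and Chl1, lay between 159 and 176 in either list. All 5 had ratios between -0.11 and -0.035. Midway to the ceiling, a pileup of 90 in WT and 88 in mutant, was passed by 803 WT and 1280 mutant peaks. Whether the ceiling narrowed the ratios of tall pairs was not tested.

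**Figure D2:**
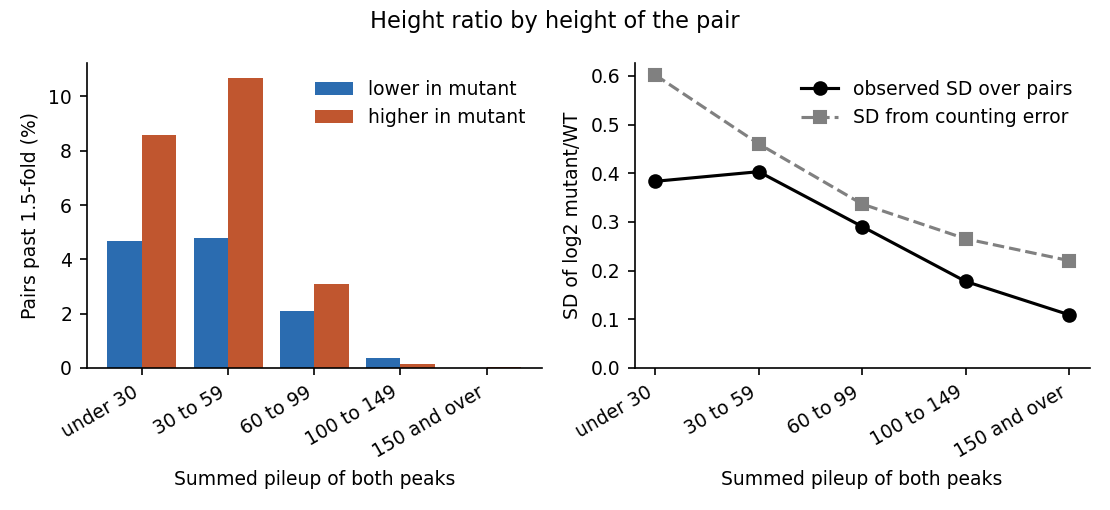
Left, percent of pairs at least 1.5-fold lower (blue) or higher (orange) in the mutant, by summed pileup of the pair; right, SD of the log2 ratio over pairs (black) and the SD expected from counting error (grey). Both shares were under 0.4% from a summed pileup of 100 upwards, and the observed SD was below the counting SD in all 5 classes.

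Chd7, the targeted gene (ENSMUSG00000041235.12, chromosome 4), was the nearest gene of 54 pairs, with a median ratio of 0.058, 1 pair lower and 7 higher. Its promoter peak (chr4:8689849-8690927) had a pileup of 40 in WT and 52 in mutant, a ratio of 0.36 (fold interval 0.834 to 1.99). The lowest Chd7 pair with a summed pileup of at least 60, which lay 23.6 kb from the TSS, had 35 in WT and 29 in mutant. These heights give no check of the deletion, since the deleted segment was not located here.

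The pair near Atoh1 stood out among tall peaks. Atoh1, a defining gene of GNPs, was the nearest gene of 7 pairs on chromosome 6, with a median ratio of 0.23. The pair 3.27 kb past the gene (chr6:64734179-64735281 in WT) had a pileup of 72 in WT and 121 in mutant, 1.66-fold higher (interval 1.23 to 2.25). The promoter pair had 59 and 70, a ratio of 0.23 (fold interval 0.817 to 1.69), so its interval included no difference. In the het list, which was called with other settings and shares the WT list as its comparator, the downstream peak had a pileup of 218 and a log2 ratio to WT of 1.28 after the median over pairs was subtracted. Mutant and het mice carry the Atoh1-Cre transgene and WT mice do not, so tags from enhancer copies in the transgene and tags from the Atoh1 locus cannot be told apart.

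By location the medians differed little. Of all pairs, 18838 lay within 1 kb of a TSS, 4210 in exons, 42779 in introns and 41269 between genes, with median ratios of 0.059, 0.043, 0.081 and 0.075. The shares past 1.5-fold were lowest at TSS, with 1.13% lower and 3.25% higher, where peaks were also taller (median pileup 38 in WT, against 18 in introns and between genes). At matched height the order depended on the height class. The median was 0.081 at TSS and 0.089 between genes for a summed pileup under 30. It was 0.085 and 0.10 from 30 to under 60. The order turned in taller pairs: from 100 to under 150 the median was 0.049 at 4571 TSS pairs and 0.0099 at 2060 intergenic pairs. Promoters of ribosomal protein genes, 72 pairs at 67 genes, had a median of 0.023 with 0 pairs past 1.5-fold.

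Among the 31688 pairs with a summed pileup of at least 60, 441 were lower and 621 higher in the mutant. Of the 441 lower pairs, 53.7% were intergenic, 38.5% intronic and 4.76% at TSS. Of the 621 higher pairs, 40.6% were intergenic, 44.6% intronic and 12.1% at TSS, and of all 31688 pairs 29.2%, 30.8% and 36.7%. The directions also differed by distance to the nearest TSS, which can lie far from a pair that is inside a long gene. The median ratio was 0.058 at 1 to 10 kb from a TSS, 0.020 at 50 to 200 kb, -0.039 at 200 to 500 kb (interval -0.057 to -0.018, 1162 pairs) and -0.085 beyond 500 kb (-0.16 to -0.054, 211 pairs). These intervals are over pairs, not over libraries or mice, and -0.018 is the ratio of equal pileups. Lower pairs made up 1.05% at 1 to 10 kb, 6.28% at 200 to 500 kb and 8.06% beyond 500 kb. Higher pairs made up 2.43%, 2.75% and 1.42% at these distances. Thus beyond 200 kb lower pairs outnumbered higher ones, by 73 to 32 and by 17 to 3, while within 50 kb the reverse held.

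Peak width carried little of the ratio. Width was the mean of both peaks, each counted from its first to its last base. The median ratio was 0.081 in 36023 pairs under 200 bp, 0.089 from 200 to under 400 bp, 0.058 from there to under 700 bp, 0.046 from there to under 1500 bp and 0.049 in the 413 pairs of 1500 bp and over. The shares past 1.5-fold went from 5.03% lower and 8.51% higher in the narrowest class to 0 pairs either way in the widest, in step with height (median WT pileup 14 and 73). The difference between widest and narrowest class changed sign when the mutant width alone was used (0.066) and when ratios were centred by height (0.013). The ratio of mutant to WT width and the ratio of heights had a Pearson correlation of 0.27 over the pairs. By GC content of 300 bases around the summits, the median went from 0.10 in the lowest of 5 equal GC classes (25.7 to 45% GC) to 0.045 in the highest (57 to 86.7%).

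Among introns of protein-coding genes, the share of lower pairs was largest in the longest genes. In genes of 20 to 100 kb, 2.79% of 9746 intronic pairs were lower and 8.44% higher, with a median of 0.089. In the 55 genes over 1 Mb, 6.51% of 2673 pairs (174) were lower and 7.97% (213) higher, with a median of 0.046 (interval -0.018 to 0.064). Over 251 windows of 10 Mb the mean ratio ranged from -0.077 to 0.16, and it was below 0 in 21 windows. The lowest window, picked as the extreme of the 251, was 60 to 70 Mb of chromosome 16. There 9.74% of 349 pairs were lower and 4.58% higher, and Cadm2, Epha3, Gm49615, Vgll3, Nsun3 and Epha6 had the most pairs. In the highest window, 40 to 50 Mb of chromosome 18, 3.46% of 433 pairs were lower and 13.6% higher.

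Among hexamers, E-boxes gave the lowest ratios. Each of 1897 hexamers found in at least 500 of the 20053 pairs that lay away from TSS and had a summed pileup of at least 60 was scored by the mean ratio of pairs with it minus that of pairs without it, counting both strands in 300 bases. The lowest 2 differences belonged to CATATG (-0.088 over 1771 pairs with it) and to the more common CAGATG (-0.079 over 9106 pairs). With fold enrichment in place of pileup the CAGATG difference was smaller, -0.044. The same 2 hexamers were the lowest of 2062 in the 68205 pairs away from TSS with a smaller summed pileup (-0.081 and -0.070), a separate set of pairs from the same libraries. CAGCTG, another E-box common in these peaks (37.3%), had a difference of -0.0033, and CACGTG had 0.021. Of the other E-boxes, CACATG was the lowest, at -0.028.

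CAGATG was present in 63.6% of the 420 lower pairs, 45.4% of all 20053 pairs and 36.4% of the 546 higher pairs. CATATG was present in 19.5%, 8.83% and 6.78%. Either hexamer was in 73.6% of lower and 40.5% of higher pairs, against 50.04% of all. The matches lay near the summits: CAGATG started within 50 bases of the midpoint in 47.6% of lower, 28.0% of all and 18.5% of higher pairs, while in the outer 50 bases on each side the shares were 9.52%, 9.43% and 7.51%. Median GC was 51% for 0 matches of CAGATG and 50.3% for 1, and the median summed pileup was 78 and 81.

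The ratio went down with the number of CAGATG matches. Means were 0.072 for 0 matches (SD 0.28, n = 10947 pairs), 0.0068 for 1 (SD 0.28, n = 6700), -0.037 for 2 (SD 0.29, n = 2020) and -0.086 for 3 or more (SD 0.28, n = 386). Lower pairs made up 1.40%, 2.46%, 4.11% and 4.92% of these groups and higher pairs 3.17%, 2.40%, 1.78% and 0.518%. The mean differences were small against the SD over pairs, so the ratios of the groups overlapped widely. Pairs at TSS gave means of 0.069, 0.047, 0.021 and -0.077 for the same numbers of matches, the last over 75 pairs.

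The CAGATG and distance patterns were present together. At 1 to 10 kb from a TSS the mean was 0.020 with CAGATG and 0.082 without it, at 200 to 500 kb it was -0.10 and 0.0015, and beyond 500 kb it was -0.20 (95 pairs) and -0.060 (116 pairs). CAGATG itself was present in 41.0% of pairs at 1 to 10 kb and 49.7% at 200 to 500 kb. In all 5 GC classes the mean with CAGATG was below the mean without it, -0.025 against 0.088 in the lowest class and -0.0048 against 0.057 in the highest.

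**Figure D3:**
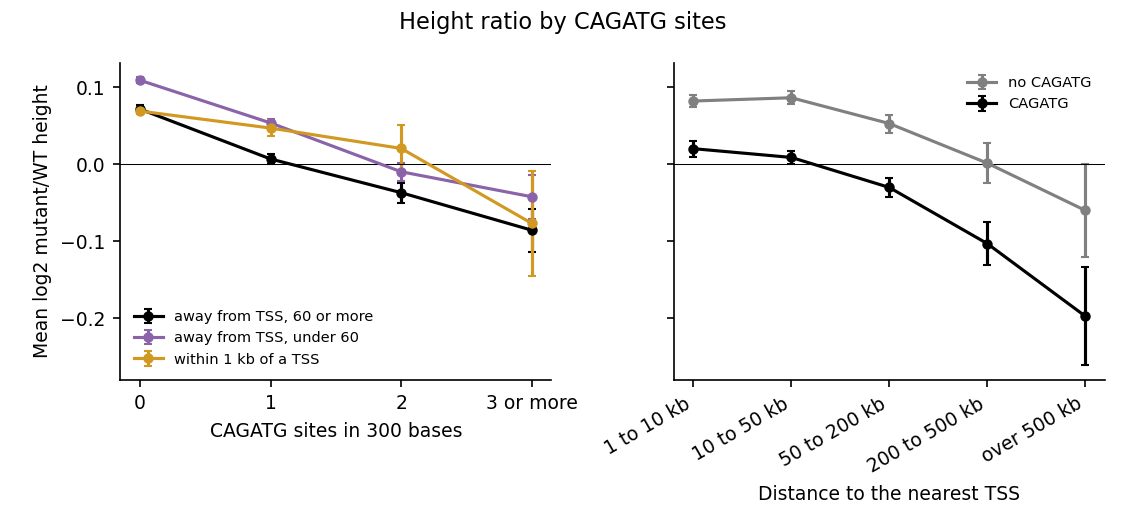
Mean log2 ratio of mutant to WT height by number of CAGATG matches in 300 bases (left) and by distance to the nearest TSS with and without CAGATG for pairs with a summed pileup of at least 60 (right). Bars are 95% intervals of the mean over pairs, not over libraries; means went from 0.072 to -0.086 with more matches in the taller pairs away from TSS, and pairs with CAGATG were below those without it at each distance.

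Other motifs differed in either direction. The ZIC motif (CAGCAGG), which zinc-finger factors of the granule lineage bind, was present in 21.2% of lower, 18.9% of all and 16.3% of higher pairs away from TSS, with means of 0.021 with it and 0.040 without it. Lower means with the match were also found for the NFY motif (CCAAT, 0.030 against 0.040) and the CRE motif (TGACGTCA, 0.020 against 0.036). The full NFI site had -0.094 against 0.036, but it was in 0.0848% of these pairs and in 0 of the lower or higher ones. Pairs away from TSS with a CTCF motif, bound by the insulator protein CTCF, had a mean of 0.093 against 0.030 without it. The homeobox core TAATTA was present in 16.3% of the 546 higher pairs, 11.2% of the 420 lower pairs and 9.61% of all 20053, and at TSS it had the highest difference of 1992 hexamers (mean 0.14 with it in 543 pairs, 0.062 without). The motifs of AP-1 (TGANTCA, means 0.033 and 0.036) and the short NFI site (TTGGC, 0.036 and 0.036) differed by less. A match says only that the letters occur in the window. The share of all 107096 pairs with the match was 35.9% for CAGATG, 30.6% for CAGCTG, 8.50% for the CTCF motif, 7.96% for TAATTA, 8.94% for TGANTCA, 60.5% for TTGGC, 16.4% for the ZIC motif, 36.2% for the NFY motif, 0.768% for the CRE motif and 0.115% for the full NFI site.

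The 8 lowest pairs with a summed pileup of at least 100 were mostly at intergenic and intronic sites. The lowest lay 209.3 kb from the lncRNA gene Gm35430 on chromosome 10 (chr10:46534446-46534847 in WT), with a pileup of 65 in WT and 35 in mutant, 1.88-fold lower (ratio 0.532, interval 0.342 to 0.814). A pair in A330069K06Rik, also a non-coding gene, had 74 and 42, a ratio of -0.84. The pair in an intron of Csmd3, a large synaptic transmembrane gene, had 92 and 53 (-0.81), and a pair in Lrp1b, of the LDL receptor family, had 72 and 43 (-0.76). A pair 851.9 kb from Cdh11, a cadherin, had 66 and 39 (-0.78), as had an intronic pair of Pde4b, a cAMP phosphodiesterase. The remaining pairs were nearest to Thumpd2 (65 and 37) and at the TSS of 1700030L20Rik (65 and 38), the sole TSS pair of the 8.

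The 8 highest pairs above the same pileup included the Atoh1 pair above. The highest was intronic in Uox (37 in WT and 65 in mutant, 0.79), followed by Bace2, a beta-secretase relative (39 and 68, 0.78), and another intron of Pde4b (38 and 65, 0.76), so that Pde4b had a pair at each end of the ranking. Cst3, which encodes cystatin C and is high in glia, had a pair 14.6 kb away (40 and 65, 0.68), and Gatm, an enzyme of creatine synthesis, had its TSS pair (39 and 62, 0.65). The other pairs were nearest to Zbed3 (40 and 64, 0.66) and Lamb3 (55 and 87, 0.64). These were picked as the extremes of 11953 pairs, so that intervals away from 1 follow from the choice, and the values are a description.

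Chd7-activated genes are here the 151 genes that the study lists as having less RNA in cells of the homozygous mutant. By symbol 136 were matched, and 121 were the nearest gene of at least 1 pair. Their 1942 pairs had a median of -0.018, against 0.071 over all pairs. Of these pairs 8.08% were lower and 5.56% higher, against 3.74% and 7.53% over all pairs. In pairs with a summed pileup of at least 60, the median was -0.057 over 592 pairs of the list and 0.046 over the 31096 other pairs, with 5.91% against 1.31% lower and 1.52% against 1.97% higher. TSS pairs of the list had a median of -0.018 (171 pairs) and TSS pairs of other genes 0.060. Within introns of genes of at least 100 kb the medians were -0.018 and 0.081. Of the 93 list genes with 3 or more pairs, 75 had a median below that of all pairs, against 3753 of 7791 coding genes (48.2%). Because the list was drawn from RNA of the same genotypes, its direction was known beforehand.

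Away from TSS, at a summed pileup of at least 60, list pairs with CAGATG had a mean ratio of -0.15 (226 pairs) and list pairs without it -0.036 (250 pairs). Pairs of other genes had -0.0032 with CAGATG and 0.074 without it. The hexamer was present in 47.5% of these list pairs and 45.4% of the others, so the list held about the same share. The lowest list genes were Mndal (median -0.58 over 5 pairs), an interferon-inducible gene of a cluster of similar copies whose reads are uncertain, and Pou2af1, a transcriptional coactivator of lymphocytes (-0.34, 3 pairs). The highest were Ttc9 (0.33, 7 pairs) and Mgst3, a glutathione transferase (0.27, 3 pairs).

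A further list held 203 genes that, per the study, depend on Chd7 as well as on topoisomerase Top2b in cultured granule neurons. It was taken from the supplement and is shorter than the set of such genes that the study describes. The study counts 203 genes of that set as significantly upregulated upon differentiation, the same number as in this list. Whether the list is that subset was not checked. Of its genes, 187 were matched and 171 had pairs. Its 3996 pairs had a median of 0.014, with 6.33% lower and 7.06% higher. Without the 35 genes shared with the Chd7-activated list, the median was 0.036, and lower and higher pairs made up 5.30% and 7.60%. Its lowest genes were Mndal and Lhfp (-0.26, 18 pairs), and its highest were Pid1, an adaptor in insulin signalling (0.42, 15 pairs, 6 higher and 0 lower), and Hsdl2 (0.39, 4 pairs).

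**Figure D4:**
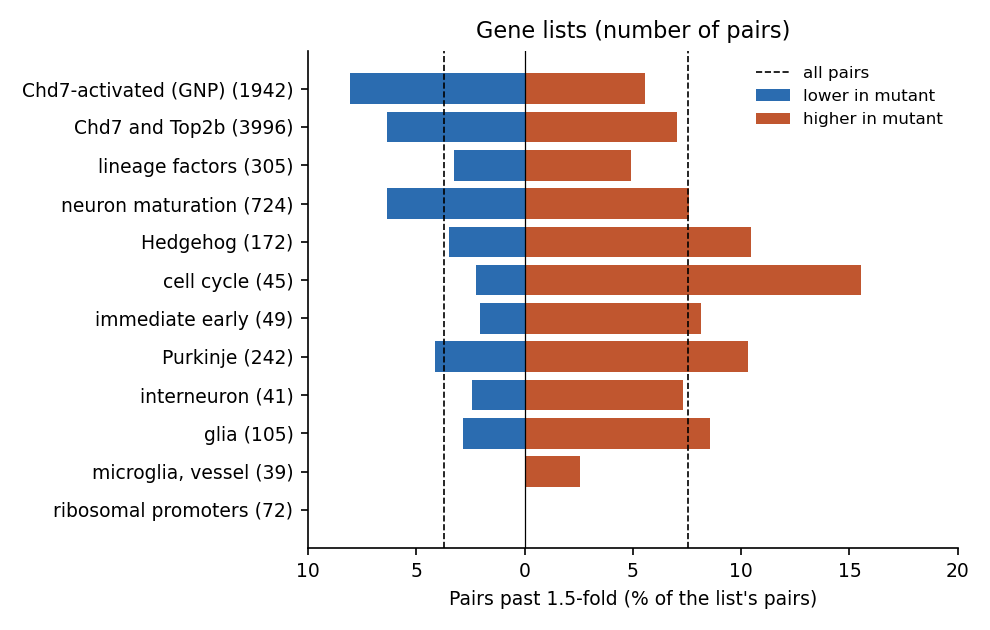
Percent of each list's pairs at least 1.5-fold lower (blue, to the left) or higher (orange, to the right) in the mutant; dashed lines give the shares over all pairs, 3.74% and 7.53%, and the number of pairs is in brackets. The Chd7-activated list had 8.08% lower pairs, the highest share of the 12 lists drawn, which leave out the genes named in the study (9.36% of 342 pairs) and the genes common to both study lists (9.62% of 956 pairs).

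Of 13 genes that the study names, 12 were nearest to at least 1 pair, and Neurod1 had 0. Pairs of these genes with a summed pileup of at least 60 are called tall here. The lowest and highest tall pairs were picked for their ratios, so their intervals are a description. The lowest were Kcnd2, a subunit of A-type potassium channels on chromosome 6 (median -0.21 over 33 pairs, 9 lower and 0 higher), and Fstl5, a secreted follistatin-like protein on chromosome 3 (-0.17 over 31 pairs, 5 lower and 0 higher). Only 11 of the 33 Kcnd2 pairs and 14 of the 31 Fstl5 pairs lay inside the gene body. The other pairs were outside it and were assigned to these as the nearest genes. At Kcnd2 the promoter pair was equal (42 in WT and 41 in mutant), whereas a pair 712.6 kb upstream of it (chr6:20502471-20503012) had 58 and 28, a ratio of -1.07 (fold interval 0.292 to 0.761). The highest tall Kcnd2 pair had 55 and 68. At Fstl5 the promoter pair had 85 and 84, and the pair whose sequence is shown above, with 3 CAGATG matches 1207 kb from its nearest TSS, had 40 and 20 (-1.02, fold interval 0.273 to 0.865). At both genes the lowest tall pair thus lay far from a promoter of nearly equal height.

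Gap43, a growth cone protein on chromosome 16, had a median of -0.12 over 20 pairs. Its promoter pair had 70 in WT and 63 in mutant, the lowest tall pair, 19.6 kb from the TSS, had 57 and 36 (-0.68), and the highest 27 and 38. Grik2, a kainate receptor subunit, had a median of -0.10 over 32 pairs with 3 lower and 0 higher, a promoter pair of 10 and 11, and tall pairs from 57 and 42 (-0.46) to 29 and 33. Nkain3, an interactor of the sodium pump, had -0.11 over 39 pairs with 4 lower and 3 higher. Its nearest TSS pair, at the lncRNA gene Gm11872 within it, had 88 and 87, and its tall pairs ran from 61 and 43 (-0.52) to 31 and 35. Cacna2d1, an auxiliary subunit of calcium channels, had -0.075 over 31 pairs, with a promoter pair of 57 and 61 and tall pairs from 37 and 31 to 36 and 44. In each of these genes most pairs were below the median of all pairs, for example 25 of 32 at Grik2 and 15 of 20 at Gap43.

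Bmp5, a BMP ligand on chromosome 9, had a median of -0.018 over 13 pairs, 2 of them lower. The intronic pair 11.95 kb from the TSS had a pileup of 32 in WT and 15 in mutant (-1.11, fold interval 0.233 to 0.880), another had 20 and 10 (interval 0.206 to 1.10), and the sole tall pair had 54 and 48. Reln, which encodes the secreted protein that guides Purkinje cell positioning, also had a median of -0.018, over 39 pairs with 2 lower and 2 higher. Its promoter pair had 20 and 22, and its tall pairs ran from 44 and 30 (-0.57) to 36 and 47 (0.37), with intervals that included no difference. Cnksr3, a signalling scaffold, had -0.036 over 14 pairs, with a promoter pair of 73 and 77 and a lowest tall pair of 38 and 35. Bmp5 and Reln thus held pairs on either side of equal height.

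Unc5c, a netrin receptor, Cadps2, a regulator of dense-core vesicle release, and Zfpm2, a zinc-finger cofactor, had medians above that of all pairs, at 0.24, 0.22 and 0.12. Unc5c had a promoter pair of 109 in WT and 113 in mutant, and its tall pairs ran from 60 and 39 (-0.64, fold interval 0.418 to 0.977) to 40 and 53. Cadps2 had 3 lower and 6 higher pairs of 31, a promoter pair of 49 and 59, and tall pairs from 36 and 24 (-0.60) to 26 and 41 (0.64). Its 3 lower pairs were intergenic, 15.4 to 34.0 kb from the TSS, whereas its 6 higher pairs were intronic. The lowest Cadps2 pair, with a summed pileup of 59 and so not tall, had 38 and 21 (-0.87, fold interval 0.304 to 0.954). The study names Bmp5, Cadps2, Fstl5, Nkain3 and Reln among genes with decreased ATAC-seq peaks, which it called from read counts of each replicate. Zfpm2 had tall pairs from 37 and 29 to 34 and 45 and no pair within 1 kb of a TSS. Pairs lower by 1.5-fold numbered 1 of 27 at Unc5c and 1 of 32 at Zfpm2, near the share of 3.74% over all pairs.

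**Figure D5:**
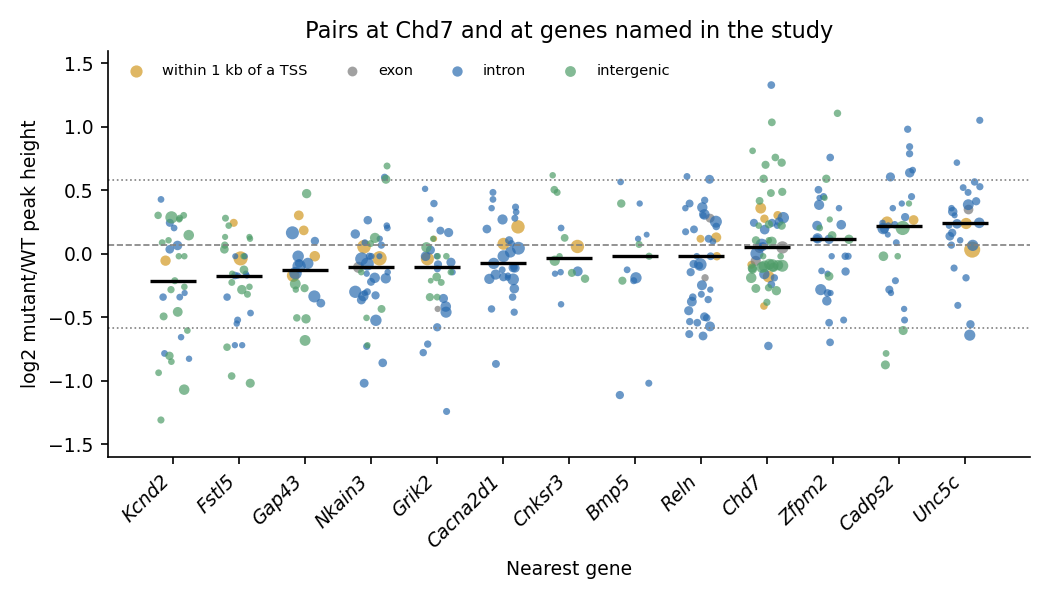
Log2 ratio of mutant to WT height of each pair at Chd7 and at the genes named in the study, coloured by location, with point area growing with summed pileup; black bars are medians. The dashed line is the median of all pairs (0.071) and the dotted lines mark 1.5-fold; Kcnd2 had 9 pairs under the lower line and 0 over the upper one.

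Of 2077 coding genes with 10 or more pairs, medians ranged from -0.40 to 0.49 (SD 0.12), and 656 were below 0. The lowest were Zfand3 (-0.40), Mei4 (-0.34), Diras2 (-0.31), Neb (-0.30), Lrfn5 (-0.30), Tmem229a (-0.29), 4931408C20Rik (-0.29) and Wdpcp (-0.29). Lrfn5, a synaptic adhesion molecule, had the most pairs of these, 24, of which 8 were lower and 1 higher. The highest were Saxo1 (0.49), Epha4 (0.46), Rerg (0.44), Lhcgr (0.44), Gli3 (0.44), Prkch (0.43), Pid1 (0.42) and Tnfrsf11a (0.42). Gli3, a transcription factor that mostly represses Hedgehog targets, had 6 of 20 pairs higher and 1 lower, and Epha4, an ephrin receptor, had 3 of 11 higher and 0 lower. The named genes were picked as the extremes of the medians, so their counts of lower and higher pairs follow from the choice. Over all pairs 3.74% were lower and 7.53% higher. Log2 of gene length had a Pearson correlation of 0.036 with the median over all 2077 genes.

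Genes of GNP programmes had medians from 0.041 to 0.13, near that of all pairs. Hedgehog pathway genes (172 pairs at 18 genes) had a median of 0.097 with 3.49% lower and 10.5% higher, led by Gli3 and the chemokine receptor gene Cxcr4 (0.28, 22 pairs, 5 higher), while Ccnd2, a D-type cyclin (-0.18, 5 pairs), and Smo, the Hedgehog signal transducer (-0.15, 4 pairs), were lowest. Cell cycle genes (45 pairs) had 0.13, with 15.6% higher and 2.22% lower, and each of the 5 genes with 3 or more pairs was above the median of all pairs, from Mki67, a proliferation marker (0.11), and Mcm5, of the replicative helicase (0.15), to Bub1b, of the spindle checkpoint (0.22), and Ccne1, cyclin E (0.23). Granule lineage transcription factors (305 pairs) had 0.054, with the bHLH gene Neurod2 (-0.22, 6 pairs) and the homeobox gene Barhl1 (-0.17, 4 pairs) lowest and Atoh1 and Id2, an inhibitor of bHLH factors (0.20, 7 pairs), highest. Genes of granule neuron maturation (724 pairs) had 0.041, with 6.35% lower and 7.60% higher. The lowest of them were Gabra6, a GABA-A receptor subunit of mature granule neurons (-0.39, 3 pairs), and Kcnd2, and the highest Tiam1, a Rac activator (0.20, 46 pairs, 8 higher and 0 lower), and Grin2a, an NMDA receptor subunit (0.19, 27 pairs). Immediate early genes (49 pairs) had 0.093, from Npas4 (-0.18) and Egr2 (-0.14) to Junb (0.20) and Klf4 (0.47). With the exception of maturation genes, these lists held no larger share of lower pairs than all pairs did.

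Peaks near marker genes of other cerebellar cells were also counted, since the preparation can hold such cells. The 426 pairs at 44 of 50 marker genes had a median of 0.096, with 3.29% lower and 8.92% higher, near the 3.74% and 7.53% of all pairs. Glial genes had the highest median, 0.17 over 105 pairs (Slc1a3, a glutamate transporter, 0.22; Mbp, a myelin protein, 0.22; lowest Olig2, -0.0096, and Cspg4, 0.047). Interneuron genes had 0.14 over 41 pairs, from Pvalb (-0.024) and Pax2 (-0.018) to the GABA synthesis genes Gad1 (0.18) and Gad2 (0.48), and Purkinje cell genes 0.081 over 242 pairs, from Skor2 (-0.062) and Lhx5 (-0.059) to Car8 (0.12) and Calb1 (0.16). Genes of microglia and vessels had 0.014 over 39 pairs, from C1qb (-0.28) and Pdgfrb (-0.070) to Tek (0.17) and Rgs5 (0.22). In pooled cells, a change in cell numbers and a change per cell cannot be told apart. Pairs on the X chromosome, which are not part of the autosomal set, had a median of 0.12 (2565 pairs), and since the study did not separate pups by sex, sex and genotype cannot be told apart there.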

How the data were processed

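The 8 ATAC-seq libraries (3 WT, 3 mutant, 2 het) were represented by 1 peak list per genotype, called by the authors with MACS2 2.1.0.20150731 on pooled libraries at a q-value cutoff of 0.05. The deposited pileup is a signal, a whole number of extended tags that the authors did not scale to depth. The deposited fold enrichment is the authors' ratio of pileup to local background, and the deposited -log10 q values were used as a filter alone. Per the file headers, fragment length was modelled as 90 bp for WT and 88 bp for mutant, 1 tag was kept per position, tag size was 107 bp and 76 bp, and tags came from a folder named for STAR, whereas the study's methods describe bowtie with shifted reads. Tag size differed between the WT and mutant lists, so effects of tag size and of genotype on the ratios cannot be told apart. Het peaks were called with an extension of 200 bp. The build was mm10 (GRCm38). The submitters' processing notes also name Trim Galore 0.4.1, Picard 1.139, STAR 2.5.0b and Bowtie 1.0.0.

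Pairs were formed and described with python 3.11.15, numpy 2.4.6, pandas 2.3.3, scipy 1.17.1 and pysam 0.24.0, and pairing, location and fold calls were checked on simulated data. Location was read at the midpoint of both summits from GENCODE M21 (coding and long non-coding genes), in the order TSS within 1 kb, exon, intron and intergenic, and the nearest gene was that with the nearest body. Sequence and GC came from the RefSeq copy of GRCm38, in which 0 peaks passed a chromosome end. Hexamers were scored where found in at least 500 pairs. With 1 pooled list a group, no p-values were computed, and differences are given with thresholds of fold (1.5) and counting intervals. Intervals of a median use order statistics over pairs and do not cover the spread between libraries or mice. Tied ratios make these narrow.

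Named genes were Chd7, the genes the study names, the 8 lowest and highest pairs with a summed pileup of at least 100, the 8 lowest and highest genes with at least 10 pairs, the 2 lowest and highest genes of each other list with at least 3 pairs, and the 5 tallest pairs. Members, lists and motifs were chosen with earlier results of these data known, and the count of all hexamers was added after the motif values were seen. Gene names of the study's lists were taken from its supplement. Alternatives were other scalings, height measures, pair definitions, height or GC centring, annotations, widths and thresholds.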

Additional observations from a re-analysis of the deposited data

How the results depend on the processing

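No paired analysis was possible because each list pools the libraries of a genotype, and for the same reason no replicate could be left out. The median of all pairs was 0.10 when divided by tags times fragment length, 0.074 with fold enrichment, 0.058 with -log10 q of at least 5 in both lists (73877 pairs) and 0.075 when each WT peak was given its tallest partner. The count of lower pairs was 2164 with fold enrichment, 1842 with the q filter and 455 at 2-fold, and that of higher pairs 3540 with the q filter and 795 at 2-fold. The q filter left fewer pairs and the 2-fold threshold was stricter by construction. The TSS minus intergenic difference, -0.016, was -0.0038 with the q filter and -0.0035 with means, 0 when centred by height, 0.012 when centred by GC and 0.037 at a summed pileup of at least 100, so its direction was not settled. The widest minus narrowest difference, -0.032, was -0.067 with fold enrichment, -0.058 with WT width, -0.014 with means, and turned to 0.066 with mutant width, 0.013 when centred by height and 0.0047 by GC. The Chd7-activated list minus all pairs, -0.089, was -0.058 with fold enrichment and -0.11 when centred by GC, and it was negative in all 11 alternatives. The Chd7 and Top2b list minus all pairs, -0.057, was -0.034 with fold enrichment, -0.076 with the q filter, -0.035 when centred by height, -0.082 by nearest TSS, -0.034 at a summed pileup of at least 60 and -0.034 without the shared genes. The CAGATG difference, -0.079, was between -0.086 and -0.044 in 6 alternatives, with -0.044 from fold enrichment. The cause of the other shifts was not tested. Alternatives by means, summed pileup, shared genes and those of CAGATG were chosen after seeing the data. Depth limits single pairs: an exact interval excluded equal height in 559 lower and 863 higher pairs (0.522% and 0.806%), under the nominal 2.5% on each side.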
